A study of Mus musculus with 6 samples.

Results

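The 10 endothelin and vasomotor genes described here, Edn1, Ednra, Ednrb, Ece1, Ace, Agtr1a, Gucy1a1, Pde5a, Npr1 and Npr3, were chosen by name from the pathways that set vascular tone, and all 10 were among the 31053 features counted by single-cell RNA sequencing of mouse lung in 6 libraries. The 4 sorted libraries came from lungs of Cxcl12DsRed/+ animals at E13.5, E15.5 and E18.5 and at postnatal day 8 (P8) (a knock-in red reporter that interrupts 1 copy of Cxcl12), pooled before a sort described as taking DsRed+, CD31+, EpCAM-, CD45- cells. The other pair were unsorted whole lungs at E18.5, 1 labelled control (Cxcl12DsRed/+) and 1 labelled null (Cxcl12DsRed/DsRed), so that every animal carried at least 1 reporter allele and no library without it was examined here. Each age, genotype and preparation was 1 library of pooled lungs, and differences between ages, genotypes and preparations therefore had no replicate check. Levels are given as UMIs (unique molecules) per 1000000 UMIs of all gated cells of a library (CPM), with exact Poisson 95% intervals that cover counting error only. Because a 3′ assay does not sample every gene alike, levels were compared between cells and libraries and not between genes.

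Endothelial cells (ECs) were cells with at least 2 UMIs of Pecam1 and Cdh5 together. They numbered 210, 9453, 9119 and 8259 in the sorted libraries from E13.5 to P8, and 1923 and 3019 in the whole lungs labelled control and null. ECs were split into cells that passed only 1 of 3 gates of 2 UMIs: Gja4, a gap junction gene of arteries (Gja4-only), Gpihbp1, a gene of general capillaries (Gpihbp1-only), and Car4, a gene of aerocyte capillaries (Car4-only). At E13.5 the Gja4-only set was 190 of 210 ECs and the Gpihbp1-only set held 2 cells. The Car4-only set reached 50 cells at E18.5 (267) and P8 (223) alone. In the whole lungs, cells with at least 2 UMIs of Cox4i2 and Higd1b together made the pericyte gate (487 and 626 cells) and cells with at least 10 UMIs of Acta2 made the smooth muscle gate (1053 and 1792 cells). All 8 endothelial markers were above 10 CPM in the sum over all ECs of every library, and all 8 pericyte markers in the pericyte gate of both whole lungs. The smooth muscle gate held all 7 markers of airway smooth muscle and myofibroblasts at a summed 2744 and 2812 CPM, and 4 of 6 markers of vascular smooth muscle at 313 and 303 CPM, so it is called the Acta2 gate here. The gates overlapped in 212 and 314 cells, and each level below is also given, where it matters, without cells that carried another lineage's markers.

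Total UMIs ranged from 63746333 at P8 to 117522172 at E15.5, and ECs were 1.65% of the kept cells at E13.5 against 81.1 to 97.7% in the later sorted libraries. The E13.5 library thus goes against a sort for CD31+ cells alone, since its 12361 cells without either EC gene carried fibroblast markers at a summed 4212 CPM and endothelial markers at 88.9 CPM. The paper's methods also mention a collected CD31-, reporter-positive fraction enriched in mesenchymal cells, and whether the library holds that fraction is not known. The E13.5 library is called sorted here by its label, and its values in the time course are those of its 210 ECs. Any pair of libraries shared 16 to 50 barcodes among kept cells. Before cells were filtered, the whole lungs shared 140 barcodes with each other, of which 16 were of kept cells, and any other pair shared at most 54. Cxcl12, the gene carrying the reporter, went against the genotype labels. It was at 4.23 CPM (3.38 to 5.24) in ECs of the library labelled control and at 496 CPM (489 to 504) in those of the library labelled null, against 720 to 1210 CPM in the sorted libraries. The names under which the tables of these whole lungs were deposited also give the opposite genotypes to the labels, and whether the samples were exchanged is not known. Both are therefore named by their labels throughout, and no direction between them is read as an effect of genotype.

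As background, endothelin-1 is made as a precursor (Edn1) that endothelin-converting enzyme (Ece1) cuts into the active peptide. It acts on the endothelin A receptor (Ednra), which contracts smooth muscle, and on the endothelin B receptor (Ednrb), which in ECs releases nitric oxide and clears the peptide. Angiotensin-converting enzyme (Ace), held on the lung endothelium, makes angiotensin II, the ligand of the type 1 receptor (Agtr1a). Nitric oxide acts on soluble guanylate cyclase, whose alpha subunit is Gucy1a1, to raise cGMP, and phosphodiesterase 5 (Pde5a), the target of sildenafil, breaks cGMP down. Npr1 is the cGMP-making receptor of atrial and B-type natriuretic peptides, and Npr3 is the receptor that clears them.

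Edn1, Ednrb and Ace were among the genes that differed most with age or EC subset, so the 250 bases before their annotated RefSeq starts are printed here (GRCm38.p6, 5′ to 3′ on the gene's strand). The Edn1 window is chr13:42301226-42301475 (+), the Ednrb window chr14:103843702-103843951 (-) and the Ace window chr11:105967698-105967947 (+). The genes span chr13:42301476-42307990, chr14:103814625-103844402 and chr11:105967945-105989964 in the GENCODE M21 annotation, in which the Ednrb window lies inside the span of that gene. Capitals mark matches of a GC box (GGGCGG) or a TATA sequence (TATAA) on either strand.
Edn1: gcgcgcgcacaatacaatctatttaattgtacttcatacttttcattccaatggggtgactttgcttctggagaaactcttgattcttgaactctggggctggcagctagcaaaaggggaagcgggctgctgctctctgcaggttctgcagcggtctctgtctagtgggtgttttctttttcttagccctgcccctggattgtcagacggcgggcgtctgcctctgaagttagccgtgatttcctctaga
Ednrb: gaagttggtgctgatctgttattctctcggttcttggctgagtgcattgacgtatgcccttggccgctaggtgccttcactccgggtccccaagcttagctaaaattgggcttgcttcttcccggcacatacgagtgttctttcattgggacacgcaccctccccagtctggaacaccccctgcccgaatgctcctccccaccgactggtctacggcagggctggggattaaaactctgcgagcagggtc
Ace: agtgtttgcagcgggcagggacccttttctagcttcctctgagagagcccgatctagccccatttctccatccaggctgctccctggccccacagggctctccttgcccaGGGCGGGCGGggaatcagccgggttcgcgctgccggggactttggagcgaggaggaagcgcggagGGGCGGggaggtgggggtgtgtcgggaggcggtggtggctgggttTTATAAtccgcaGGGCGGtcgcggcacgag
The Ace window held 4 GC boxes and 2 overlapping TATA matches, and the other two windows held none of the 6 motifs searched. Among 32851 promoter windows of this length, 32.7% held a GC box and 22.8% a TATA match. The AP-1 motif, searched as TGANTCA, was held by 6.75% of all windows. The GATA motif, searched as AGATAA, was held by 9.99% of them. The hypoxia core, searched as ACGTG, was held by 16.6% and the CArG box by 1.47%. None of the 14 windows for 9 of the genes held an AP-1, GATA or CArG match, and no window was matched for Agtr1a. In Edn1, the first 30 bases from the annotated start (chr13:42301476-42301505) held 1 match each of AGATAA and ACGTG on the opposite strand. Where transcription of Edn1 begins in these cells was not examined, so the window before the annotated start may not hold the promoter in use. The 2 matches are in capitals in the next line, and 0.728% and 2.14% of all such stretches held these motifs.
Edn1, first 30 bases: gccgggtcTTATCTctggctgCACGTtgcc
These matches describe letters in a window and were not tested for binding.

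**Figure D1:**
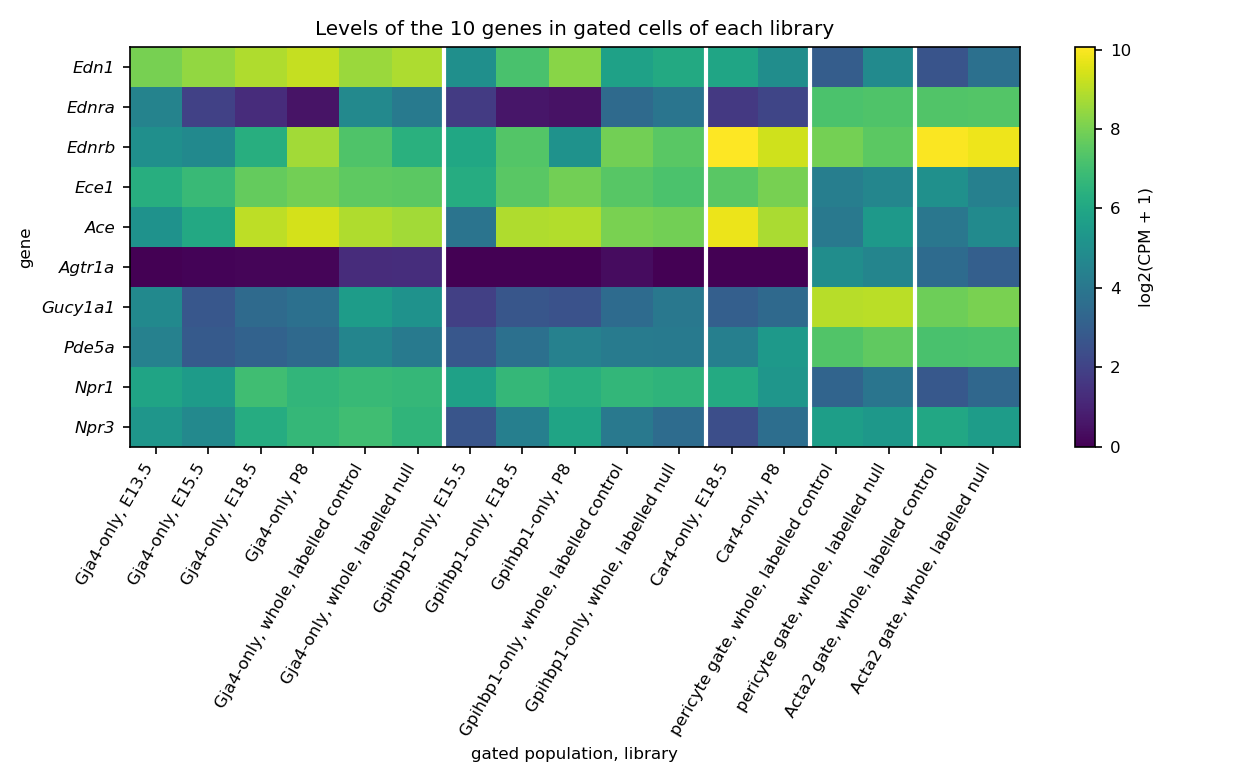
Levels of the 10 genes as log2(CPM + 1), genes in rows and library-by-population sums of at least 50 cells in columns (6 Gja4-only, 5 Gpihbp1-only, 2 Car4-only, 2 pericyte gate, 2 Acta2 gate). In the whole lungs Edn1, Ece1, Ace and Npr1 were higher in all ECs together than in the pericyte and Acta2 gates, but single EC columns were low, such as Ace at 13.8 CPM in Gpihbp1-only cells at E15.5 and Edn1 at 29.2 CPM in Car4-only cells at P8. Ednra, Agtr1a, Gucy1a1 and Pde5a were higher in the pericyte gate than in whole-lung ECs.

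In the whole lungs 4 of the 10 genes were higher in ECs and 4 in the pericyte gate, and Ednrb and Npr3 were found in both. Between the pericyte gate and ECs, in the library labelled control, 4 genes were at least 2-fold higher in the pericyte gate (Ednra, Agtr1a, Gucy1a1 and Pde5a) and 4 were at least 2-fold lower (Edn1, Ece1, Ace and Npr1). The same genes passed in the library labelled null. Of all genes of at least 10 CPM in either population, 12% were that much higher and 10.2% lower in the library labelled control, and 10.7% and 9.26% in the library labelled null.

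Edn1 was at 114 CPM (110 to 119) and 184 CPM (179 to 188) in ECs of the whole lungs labelled control and null, at 6.88 (5.05 to 9.14) and 26.8 (23.5 to 30.5) in the pericyte gate, and at 5.15 and 12.0 in the Acta2 gate. The ligand was thus highest in ECs in both libraries, with no overlap of the counting intervals. Immune cells (Ptprc gate), which should lack it, stood at 0.291 and 0.597 CPM. Without cells of other lineages the pericyte gate fell to 0.667 and 1.03 CPM, which is 1 UMI in 165 cells and 2 UMIs in 190 cells. Ece1, the converting enzyme, was at 170 and 156 CPM in ECs, 18.9 and 23.9 in the pericyte gate, and 32.5 and 20.0 in the Acta2 gate. Ace was at 312 and 329 CPM in ECs, 15.9 and 41.7 in the pericyte gate, and 14.9 and 27.2 in the Acta2 gate. Npr1 followed the same order, with 100 and 88.1 CPM in ECs against 8.49 and 14 in the pericyte gate and 5.89 and 9.18 in the Acta2 gate. The log2 ratios of the pericyte gate to ECs in the library labelled control were -3.96 for Edn1, -3.13 for Ece1, -4.25 for Ace and -3.49 for Npr1.

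Ednra, Gucy1a1, Pde5a and Agtr1a were higher outside the endothelium. Ednra, the contractile receptor, was at 148 CPM (139 to 157) and 154 CPM (146 to 163) in the pericyte gate, 160 (153 to 168) and 165 (159 to 171) in the Acta2 gate, and 14.1 and 15.1 in ECs. The counting intervals of the pericyte and Acta2 gates overlapped in both libraries, but the gates shared 212 and 314 cells and their difference was not tested. In immune cells Ednra stood at 23.0 and 21.3 CPM, above its level in ECs, so the EC value was at or below background. After thinning each cell to 2000 UMIs, 1.62% and 1.90% of ECs held an Ednra UMI against 2.99% and 2.56% of immune cells. Without cells of other lineages, ECs fell to 1.64 and 1.07 CPM.

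Gucy1a1 was at 505 CPM (489 to 523) and 513 CPM (498 to 528) in the pericyte gate, 229 and 262 in the Acta2 gate, and 18.4 and 20.8 in ECs, the last close to the 18.8 CPM of immune cells in both libraries. Its level was highest in the pericyte gate in both whole lungs. Gucy1b1, the beta subunit that completes the cyclase, had the same order, at 237 and 213 CPM, 159 and 169 CPM, and 28.3 and 35.2 CPM. Pde5a was at 162 and 193 CPM in the pericyte gate, 143 and 147 in the Acta2 gate, and 18.2 and 18.4 in ECs against 16.5 and 16.1 in immune cells. Prkg1, the cGMP-dependent kinase downstream, was at 35.8 and 29.4 CPM in the pericyte gate and 36.0 and 31.6 in the Acta2 gate. The log2 ratios of the pericyte gate to ECs were 4.74 and 4.59 for Gucy1a1, and 3.12 and 3.35 for Pde5a.

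Agtr1a, the main angiotensin II receptor of mouse vessels, was low everywhere but was concentrated in the pericyte gate. It held 200 UMIs (29.3 CPM, 25.3 to 33.6) and 202 UMIs (22.9 CPM, 19.8 to 26.3) there, 10.5 and 7.23 CPM in the Acta2 gate, and 14 UMIs in all ECs of each whole lung. In the sorted ECs it held 1, 8, 3 and 8 UMIs from E13.5 to P8. Without cells of other lineages Agtr1a stood at 54.7 and 30.5 CPM in the pericyte gate and fell to 0.625 and 0.611 CPM in the Acta2 gate. Agt, the angiotensin precursor, was at 398 and 293 CPM in the Acta2 gate, 112 and 73.4 in the pericyte gate, and 25.7 and 23.9 in whole-lung ECs, against at most 0.699 CPM in the sorted ECs.

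**Figure D2:**
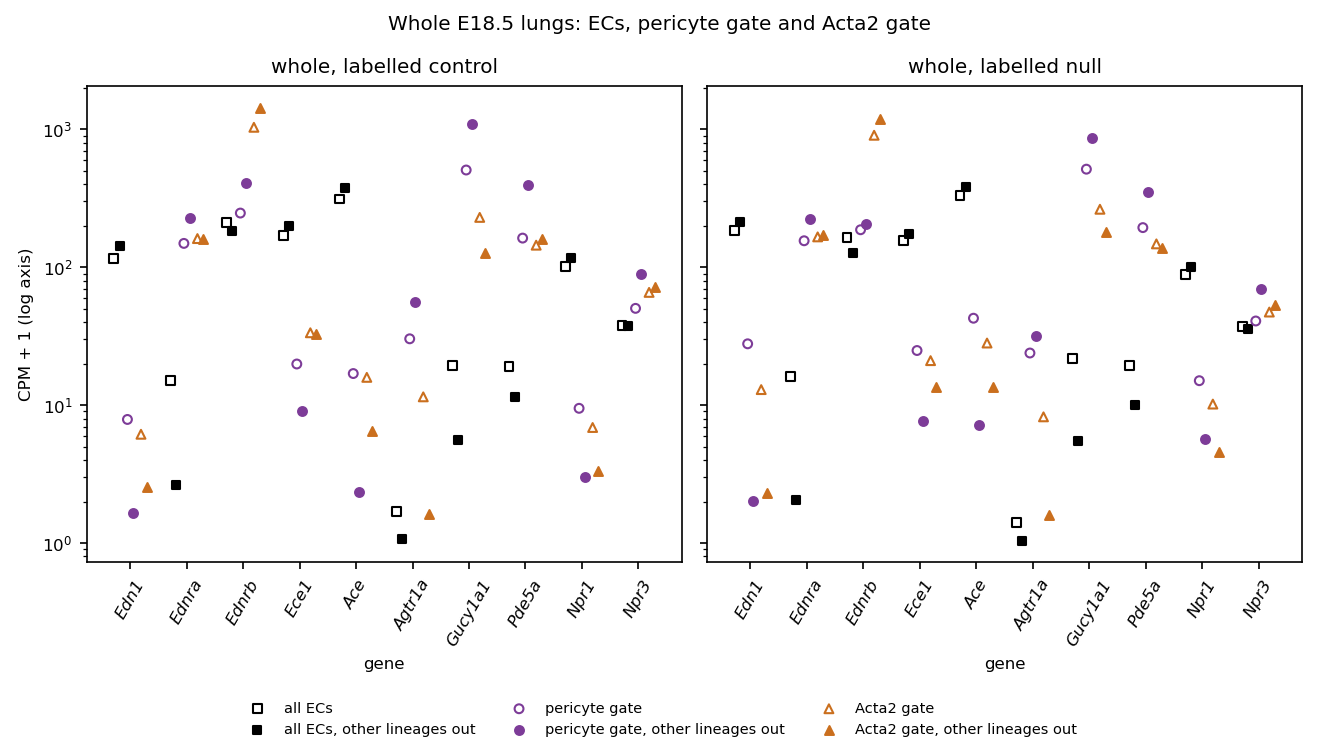
Levels of the 10 genes in both whole lungs, as CPM + 1 on a log axis, with ECs as squares, the pericyte gate as circles and the Acta2 gate as triangles, open for all gated cells and filled with cells of other lineages left out. Removing those cells moved Edn1 in the pericyte gate to about 1 CPM and raised Gucy1a1 there to 1099 and 857 CPM.

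Ednrb was highest in the Acta2 gate and Npr3 differed least between populations. Ednrb was at 1032 and 903 CPM in the Acta2 gate, 246 (234 to 258) and 186 (177 to 195) in the pericyte gate, and 210 (204 to 217) and 163 (158 to 167) in ECs, against 114 and 109 in immune cells. After thinning, 69.8% and 62.7% of cells of the Acta2 gate held an Ednrb UMI against 7.31% and 9.19% of immune cells. The order in both libraries was the Acta2 gate, the pericyte gate and ECs, with intervals that did not overlap. However, 43.5% and 50.2% of the pericyte gate's cells also passed the Acta2 gate. The order is therefore stated only for the gates with all their cells kept. The plot of levels in both whole lungs also shows Ednrb in each gate with cells of other lineages left out. Of the Acta2 gate's cells without other lineages' markers, 715 and 1211 had at least 2 UMIs of Hhip or Pdgfra, genes of airway smooth muscle and myofibroblasts, and held Ednrb at 1539 and 1321 CPM. The 36 and 77 cells with neither gene held it at 147 and 83.7 CPM, below ECs without other lineages' markers (181 and 125 CPM). That split was chosen after the values had been seen and has no test. Npr3, the clearance receptor, was at 64.7 and 46.3 CPM in the Acta2 gate, 49.3 and 39.7 in the pericyte gate, and 37.0 and 36.4 in ECs.

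Between the Acta2 gate and ECs, 5 of the 10 genes were at least 2-fold higher and 4 lower in the library labelled control, where 13.6% and 11.6% of all genes passed. The log2 ratios were 3.46 for Ednra, 2.29 for Ednrb, 3.19 for Agtr1a, 3.60 for Gucy1a1 and 2.94 for Pde5a. In the library labelled null 4 were higher and 4 lower, against 13.2% and 11.4% of all genes, and Agtr1a was under 10 CPM in both populations. The pericyte gate carried cells of other kinds, with at least 2 Epcam UMIs in 17.5% and 7.35% of its cells and an epithelial marker sum of 22410 and 10202 CPM. The part of these cells in the pericyte values above was not tested beyond the values given without them.

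The wider pathway lists were counted by the same 2-fold rule in the library labelled control, among genes that reached 10 CPM in either population, so these counts only describe the genes that entered. They stand beside the 12% of all genes higher and 10.2% lower in the pericyte gate. Of the 12 nitric oxide and cGMP genes above 10 CPM, 7 were higher in the pericyte gate and 3 lower, the latter being Nos2 (-5.29), Nos3 (-3.58), the endothelial nitric oxide synthase, and Pde2a. Nos3 itself was at 42.2 and 39.1 CPM in ECs and 3.07 and 4.30 in the pericyte gate. Of 6 endothelin genes Edn1 and Ece1 were lower and 3 were higher, among them Edn3 (2.71), a ligand that acts mainly through the B receptor, at 28.1 and 16.2 CPM in the pericyte gate and at most 3.88 CPM in any EC sum. Of 6 angiotensin genes 3 were higher (Agt 2.10, Agtr1a and Enpep 2.35) and Ace alone was lower. Of 3 natriuretic genes none was higher and Npr1 was lower. Of 15 contraction genes 6 were higher and 1 lower, and of 13 other vasomotor genes 6 were higher and 6 lower.

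Among ECs, Edn1 and Npr3 were higher in Gja4-only than in Gpihbp1-only cells in every library. UMI sums of the exclusive subsets were compared with edgeR's quasi-likelihood test, with the library as a block, over 5 libraries for these subsets and 13591 genes. Of all genes, 16.8% were called higher and 17.1% lower at an adjusted p of 0.05. Of the 10 genes, 4 were called higher (Edn1, Npr3, Gucy1a1 and Agtr1a) and 0 lower, with 0 lower also at an unadjusted p under 0.05 and in DESeq2. Pde5a was called lower without cells of other lineages (edgeR adjusted p 0.036) and with the gate set after thinning (0.023). Ednrb was called lower without P8 (edgeR adjusted p 0.000301), the 1 library where it was higher in Gja4-only cells. Edn1 and Npr3 stayed called under every alternative run.

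Edn1 in Gja4-only cells was at 344, 465 and 574 CPM in the sorted libraries from E15.5 to P8, and at 376 and 454 CPM in the whole lungs labelled control and null. In Gpihbp1-only cells of the same libraries it was at 31.4, 143, 307, 53.3 and 68.4 CPM. The subsets did not overlap, since the lowest Gja4-only value exceeded the highest Gpihbp1-only value. The log2 difference was 2.25 ± 0.44 (SE), with an adjusted p of 0.00944 in edgeR, and it was higher in 5 of 5 libraries. Across the alternatives the adjusted p ran from 7.1e-06 to 0.0388. After thinning, 43.4% to 49.2% of Gja4-only cells held an Edn1 UMI against 6.08% to 34.7% of Gpihbp1-only cells.

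Npr3 in Gja4-only cells was at 25.3, 74.5, 104, 126 and 94.3 CPM in the same order, and in Gpihbp1-only cells at 5.21, 19.2, 57.4, 15.7 and 10.7 CPM. The clearance receptor was higher in Gja4-only cells in every library, by least at P8, and the ranges over libraries overlapped. The log2 difference was 2.18 ± 0.32 (SE; edgeR adjusted p 0.0019). Npr1, the signalling receptor for the same peptides, was at 45.4 to 127 CPM in Gja4-only and 53.3 to 104 CPM in Gpihbp1-only cells, with a difference of 0.07 that was not called (edgeR adjusted p 0.661). Nppa, which encodes atrial natriuretic peptide, did not exceed 0.304 CPM in ECs of any library, and Nppc, which encodes the C-type peptide, did not exceed 1.26 CPM. Npr2, the receptor for the C-type peptide, was at 1.37 to 3.78 CPM in ECs.

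**Figure D3:**
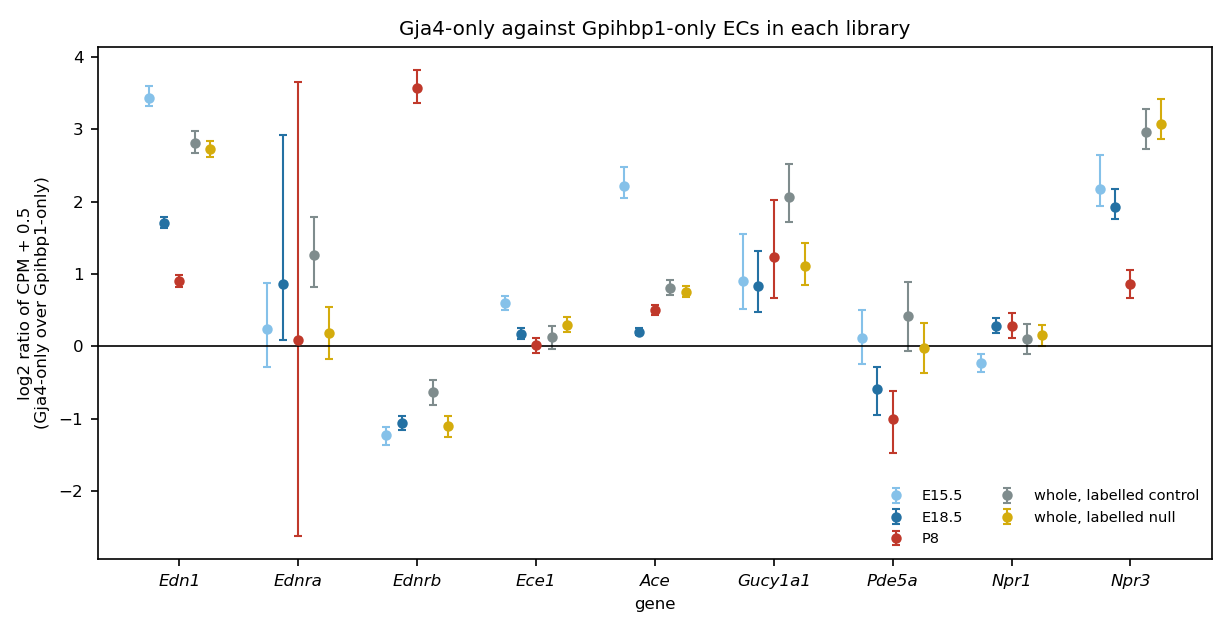
Log2 ratio of Gja4-only over Gpihbp1-only CPM (+ 0.5) for 9 genes, without Agtr1a, in 5 libraries, with 95% intervals that cover counting error. All 5 points of Edn1 and Npr3 lay above 0, and Ednrb was below 0 in 4 libraries and at 3.56 in P8.

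The calls for Gucy1a1 and Agtr1a rested on low levels. Gucy1a1 was at 5.58, 10.1, 12.1, 45.8 and 34.1 CPM in Gja4-only and at 2.76, 5.48, 4.83, 10.6 and 15.5 CPM in Gpihbp1-only cells (log2 difference 1.25 ± 0.18, edgeR adjusted p 0.00045). Gja4-only cells of the whole lungs also held more of the pericyte markers, a summed 157 and 118 CPM against 86.7 and 90.7 CPM. Without cells of other lineages the edgeR adjusted p for Gucy1a1 was 0.24, and with the gate set after thinning it was 0.74. Agtr1a had 19 UMIs against 3 over all libraries (edgeR adjusted p 0.0148, DESeq2 0.133). Without cells of other lineages each Gja4-only and Gpihbp1-only sum held 0 or 1 Agtr1a UMI.

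Ace and Ece1 were higher in Gja4-only cells in 5 of 5 libraries without being called. Ace was at 65.9, 531, 685, 463 and 407 CPM in Gja4-only and 13.8, 460, 482, 263 and 241 CPM in Gpihbp1-only cells, a log2 difference of 0.84 ± 0.31 (edgeR adjusted p 0.0814, DESeq2 0.00643). The largest gap was at E15.5, at a log2 ratio of 2.22, and the other 4 libraries lay between 0.21 and 0.81. Ece1 differed by 0.20 ± 0.07 (edgeR adjusted p 0.0528). Pde5a (-0.28, adjusted p 0.273) and Ednra (0.59, adjusted p 0.0962) were not called in edgeR, and Ednra was at 0.403 to 25.5 CPM over these sums.

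Ednrb had opposite directions in the sorted P8 library and the others. In Gja4-only cells it was at 26.4 CPM (25.1 to 27.9), 79.2 CPM (75.6 to 82.9) and 410 CPM (396 to 423) in the sorted libraries from E15.5 to P8, and at 154 and 82.5 CPM in the whole lungs labelled control and null. In Gpihbp1-only cells it was at 62.1, 165, 34.2 (29.3 to 39.8), 240 and 177 CPM. P8 was thus the highest Gja4-only and the lowest Gpihbp1-only value. The log2 ratios were -1.22, -1.05, 3.56, -0.63 and -1.10, and over all libraries the difference was -0.25 ± 0.84 (edgeR adjusted p 0.859). Without P8 it was -1.09 (edgeR adjusted p 0.000301), but P8 was the only library of the opposite direction. Leaving it out keeps libraries of the same sign, so that p is no separate evidence of a difference.

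At P8, 38.2% (35.7 to 40.7) of thinned Gja4-only cells held an Ednrb UMI, against 5.68% (4.26 to 7.40) of Gpihbp1-only and 63.6% of Car4-only cells. The other aerocyte markers were low in the P8 Gja4-only cells, a summed 243 CPM against 701 CPM in Gpihbp1-only and 3349 CPM in Car4-only cells, and Apln, an aerocyte gene, stood at 2.53, 48.1 and 426 CPM. Without cells of other lineages Ednrb was at 415 CPM in P8 Gja4-only and 33.0 CPM in Gpihbp1-only cells. The exclusive sets covered a small part of the P8 ECs, since 75.0% of cells passing the Gja4 gate also passed the Gpihbp1 gate. With those cells kept, Ednrb was at 176 CPM in the Gja4 gate and 126 CPM in the Gpihbp1 gate.

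Car4-only cells, measured at E18.5 and P8, held the highest values of Ednrb and the lowest of Edn1 and Npr3 among the 3 subsets at those ages, but not all of these differences were called. Ednrb was at 1070 CPM at E18.5 and 651 CPM (607 to 697) at P8, against 165 and 34.2 CPM in Gpihbp1-only cells. The difference of 2.26 ± 1.18 was not called (edgeR adjusted p 0.286), and without P8 it was 2.70. Gja4-only cells stood at -2.51 ± 1.09 relative to Car4-only cells in Ednrb (not called, edgeR adjusted p 0.18), and without P8 at -3.79. Without P8, E18.5 was the only library with at least 50 Car4-only cells, so no p is given for either difference. Edn1 in Car4-only cells was at 58.8 CPM (46.7 to 73) and 29.2 CPM (20.4 to 40.4), which is 4.06 ± 0.78 (log2) below Gja4-only cells (edgeR adjusted p 0.0148) and 1.81 ± 0.72 below Gpihbp1-only cells, the latter not called (edgeR adjusted p 0.168). Npr3 in Car4-only cells was at 4.30 and 11.3 CPM, 4.05 ± 0.71 below Gja4-only cells (edgeR adjusted p 0.00785), and the difference from Gpihbp1-only cells (-1.87 ± 0.76) was not called in edgeR (adjusted p 0.168) but was in DESeq2 (adjusted p 0.00645). Over all genes, 5.9% were called higher and 6.89% lower in Car4-only than in Gpihbp1-only cells, and 10.2% higher and 9.77% lower in Gja4-only than in Car4-only cells. Of the 10 genes, 1 was called higher and 1 lower in the former, and 3 higher and 1 lower in the latter.

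Npr1 and Pde5a separated Car4-only cells from both other subsets. Npr1 was at 69.5 CPM (56.4 to 84.8) and 38.1 CPM (28 to 50.7) in Car4-only cells at E18.5 and P8, against 104 and 80.3 in Gpihbp1-only and 127 and 98.1 in Gja4-only cells. It was lower than in Gpihbp1-only cells by -0.91 ± 0.20 (edgeR adjusted p 0.0168), and Gja4-only cells exceeded it by 0.98 ± 0.19 (edgeR adjusted p 0.00609). Pde5a was at 19.4 CPM (12.8 to 28.2) and 41.3 CPM (30.8 to 54.3) in Car4-only cells, against 12.1 and 20.3 in Gpihbp1-only and 7.95 and 9.87 in Gja4-only cells. It was the highest in Car4-only cells at both ages, by 1.13 ± 0.31 over Gpihbp1-only cells (edgeR adjusted p 0.0406), and Gja4-only cells stood at -1.41 ± 0.31 relative to them (edgeR adjusted p 0.0112). The Pde5a call against Gpihbp1-only cells was lost without cells of other lineages (adjusted p 0.069), with SoupX-adjusted whole lungs (0.067), with the gate set after thinning (0.085) and without any library but the whole lung labelled control (0.065 to 0.22). Without P8 the Npr1 calls were lost too, against both other subsets, and without E18.5 the Gja4-only against Car4-only calls for Edn1, Npr3 and Pde5a were lost. The last was also lost without P8. Each fit without E18.5 or P8 leaves 1 library with Car4-only cells.

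The partners of these genes were tested in the same edgeR fits. Each count in this paragraph stands beside 16.8% of all genes called higher and 17.1% lower in Gja4-only than in Gpihbp1-only cells. Of 17 nitric oxide and cGMP genes tested, 7 were called higher and 2 lower in Gja4-only than in Gpihbp1-only cells, with a median log2 difference of 0.73 beside 0.01 over all genes. Nos3 was higher by 1.23 ± 0.13 (adjusted p 0.000108) and Prkg1 by 2.13 ± 0.26 (adjusted p 0.000255), while Pde2a (-3.11) and Nos2 (-2.93) were lower. Nos3 stood at 63.4 to 82.7 CPM in Gja4-only and 22.8 to 35.8 CPM in Gpihbp1-only cells. Gucy1b1 was not called (-0.40, adjusted p 0.114). Among 6 natriuretic genes, Npr3 and Furin (0.65), a protease that processes peptide precursors, were higher, and among 6 endothelin genes Edn1 alone was. Among 7 angiotensin genes, Agtr1a and Lnpep (0.27) were higher. Of 19 other vasomotor genes 6 were higher, led by Abcc9 (2.54), Trpc6 (2.14) and Kcnj8 (1.79), and 3 were lower, Ramp3 (-2.35), Adrb1 (-1.50) and Cacna1c (-1.21). Trpc6 is itself on the pericyte marker list, whose sum was higher in Gja4-only cells of both whole lungs and at E15.5 (54.5 against 19.7 CPM) and P8 (22.0 against 18.3 CPM) but not in sorted E18.5 cells (50.7 against 59.8 CPM), and its part in these calls was not tested. Over the alternatives the edgeR adjusted p reached 0.142 for Abcc9, 0.21 for Trpc6 and 0.275 for Kcnj8, so each of these calls was lost in at least 1 of them. Of 15 contraction genes 2 were higher and 2 lower.

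In Car4-only cells against Gpihbp1-only cells, edgeR called 0 of 6 endothelin and 0 of 7 angiotensin genes, where Edn1, Ednra and Atp6ap2 were at an unadjusted p under 0.05 and DESeq2 called Ednra and Atp6ap2 higher. Ednra was near 0 in both subsets. Without cells of other lineages, Car4-only cells held 0 Ednra UMIs at E18.5 and 3 at P8, and Gpihbp1-only cells held 1 and 0. Of 17 nitric oxide and cGMP genes 2 were higher (Pde5a and Prkg1) and 1 lower (Nos3), and of the natriuretic genes Npr1 alone was lower. These edgeR counts stand beside 5.9% of all genes called higher and 6.89% lower in Car4-only than in Gpihbp1-only cells. Nos3 was lower by -1.01 (adjusted p 0.049) and Prkg1 higher by 1.57 (adjusted p 0.0431). In Gja4-only against Car4-only cells Nos3 was higher by 2.24 (adjusted p 0.000449) and Gucy1b1 lower by -1.05 (adjusted p 0.0434).

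With age, Ace and Ednrb rose most among the 10 genes in sorted ECs, both between E15.5 and E18.5. In all ECs, 4 genes were at least 2-fold higher at E18.5 than at E15.5 (Ace, Ednrb, Npr1 and Npr3) and none lower, where 8.93% of all genes were higher and 4.8% lower. With 1 library per age these are differences between libraries, and the makeup of the sorted ECs changed between the same libraries.

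Ace in all ECs was at 30.5 CPM (23 to 39.7), 47.5, 551 (545 to 557) and 580 (574 to 586) from E13.5 to P8. The main step lay between E15.5 and E18.5, with a log2 ratio of 3.52 (3.49 to 3.58). Within Gja4-only cells it was 3.0 and within Gpihbp1-only cells 5.01, from 13.8 to 460 CPM. In Gja4-only cells the same 4 genes as in all ECs passed 2-fold, against 7.46% of all genes. The whole lungs at E18.5 stood lower than the sorted ECs of that age, at 312 and 329 CPM.

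Ednrb in all ECs was at 37.7, 38.2, 168 (165 to 172) and 180 (176 to 183) CPM from E13.5 to P8, with a log2 ratio of 2.13 (2.08 to 2.19) from E15.5 to E18.5 and 0.09 from E18.5 to P8. The level over all ECs at P8 was close to that at E18.5, while the subsets went opposite ways. It was 2.36 higher (2.29 to 2.45) in Gja4-only cells, where 4.37% of all genes were higher, and -2.25 lower (-2.50 to -2.04) in Gpihbp1-only cells, where 3.57% of all genes were lower. No other of the 10 genes passed 2-fold in Gja4-only cells between these ages, in which 3.8% of all genes were lower. The other aerocyte markers fell from E18.5 to P8 in both subsets, from a summed 1396 to 701 CPM in Gpihbp1-only and from 558 to 243 CPM in Gja4-only cells. In all ECs they rose from 562 CPM at E15.5 to 1125 CPM at E18.5, and cells passing the Car4 gate went from 10 to 852. Their part in the Ednrb values was not tested.

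**Figure D4:**
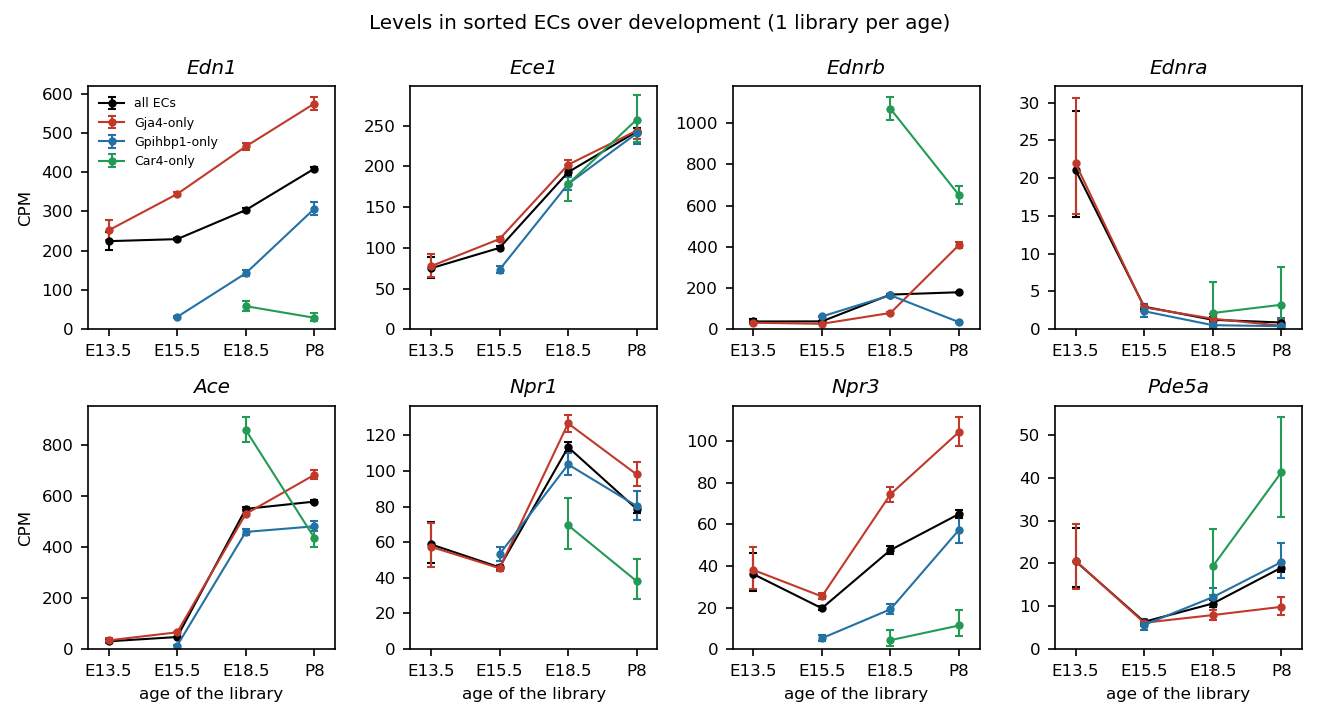
CPM of 8 genes in the sorted libraries, by age, with 95% Poisson bars, for all ECs (black), Gja4-only (red), Gpihbp1-only (blue) and Car4-only cells (green). Ace stepped up between E15.5 and E18.5 in every line shown for both ages, and the Gja4-only and Gpihbp1-only lines of Ednrb crossed between E18.5 and P8.

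Edn1 differed by smaller steps in all ECs. It was at 224 CPM (203 to 247) at E13.5 and 229 (226 to 232) at E15.5, which overlap, then at 303 (299 to 308) and 409 (404 to 414). Without cells of other lineages Edn1 was at 277 CPM (248 to 307), 233 (230 to 236), 305 and 411 CPM in the same order. By both sets of values the rise lay after E15.5. In Gpihbp1-only cells the ligand rose from 31.4 to 143 and 307 CPM, log2 ratios of 2.17 (2.03 to 2.34) and 1.10, so that its gap to Gja4-only cells narrowed from 3.44 to 0.90 over the same ages. The 6 arterial markers, Cxcl12 among them, also rose in these Gpihbp1-only cells, from a summed 326 to 954 and 1541 CPM, and cycling markers fell from 939 to 594 and 451 CPM. Their part in the Edn1 values was not tested. In those cells 6 genes were at least 2-fold higher at E18.5 than at E15.5, against 13.7% of all genes, namely Edn1, Ednrb, Ece1 (1.28), Ace, Pde5a (1.04) and Npr3 (1.78). Between E18.5 and P8, Edn1 and Npr3 (1.56) were higher again, against 5.02% of all genes.

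Ece1 in all ECs rose from 74.9 and 100 CPM to 193 and 243 CPM, staying under 2-fold at each step. Npr1 was at 58.8, 45.9, 113 and 78.6 CPM and was highest at E18.5 (log2 ratio 1.29 over E15.5). Npr3 was at 36.1, 19.6, 47.6 and 65.0 CPM (1.26 from E15.5 to E18.5). No gene of the 10 was at least 2-fold different between P8 and E18.5 in all ECs, where 8.48% of all genes were.

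Between E13.5 and E15.5, Ednra, Gucy1a1 and Pde5a were lower in ECs, by log2 ratios of -2.63 (-3.31 to -2.29), -2.30 and -1.61, among 4.55% of all genes, and none of the 10 was higher (2.6% of all genes). Ednra went from 21.1 CPM (14.9 to 28.9) to 2.99, Gucy1a1 from 27.7 to 5.22 and Pde5a from 20.5 to 6.38. At E13.5 the ECs also carried fibroblast markers at a summed 1260 CPM and pericyte markers at 165 CPM, the latter against 43.8 CPM at E15.5. With cells of other lineages left out, the 176 remaining E13.5 ECs held Ednra at 4.73, Gucy1a1 at 8.67 and Pde5a at 11.8 CPM, against 0.566, 1.39 and 4.43 CPM at E15.5. These E13.5 values rest on 6, 11 and 15 UMIs, and the interval of Pde5a ran from 6.61 to 19.5 CPM, against 4.01 to 4.90 at E15.5. By these values each of the 3 was over 2-fold lower at E15.5, and of them only Pde5a was above 10 CPM at either age. The part that RNA from other cells of the E13.5 library had in these values was not tested.

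From E15.5 to E18.5 in all ECs, 7 of 28 other vasomotor genes reached 10 CPM at either age, and 6 of them were at least 2-fold higher, among them Adrb1 (3.69) and Bdkrb2 (3.47). A gene that was low at E15.5 entered by being high at E18.5, so no count or median over the genes that entered is read as a result. Of the nitric oxide and cGMP genes, 8 of 18 entered, and 4 were at least 2-fold higher: Prkg1 (3.18), Nos2 (1.77), Gucy1b1 (1.68) and Pde3a (1.60). Nos3 was at 71.0, 52.2, 49.6 and 37.7 CPM from E13.5 to P8, with no step of 2-fold. Of 11 contraction genes, Mylk (1.57) was higher and Myl9 (-1.62) and Rgs2 (-1.17) were lower.

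Sorted ECs at E18.5 were then set beside whole-lung ECs of the same age. Edn1 was higher in the sorted ECs than in the library labelled control, at 303 against 114 CPM (log2 ratio 1.41, among 2.38% of all genes, and 0.82 against its SoupX-adjusted counts), while Ednra (-3.06) and Gucy1a1 (-1.10) were lower (5.11% of all genes). Within Gja4-only cells Edn1 differed by 0.31, and Ednra (-3.78), Gucy1a1 (-2.12) and Pde5a (-1.49) were lower in the sorted cells, against 4.31% of all genes. Within Gpihbp1-only cells Edn1 was higher by 1.41 (1.24% of all genes higher, and 0.95 with SoupX-adjusted counts) and Ednra lower by -3.38 (4.3% lower). Against the library labelled null, the Edn1 ratio in all ECs was 0.72, and Ednra (-3.16) and Gucy1a1 (-1.27) were again lower (3.9% of all genes). The sort took DsRed+ cells, and the Gja4-only share of its ECs was 3743 of 9119 against 224 of 1923, and the genotype of the library labelled control is in doubt (ECs with Cxcl12 at 4.23 against 1210 CPM), so that sorting, preparation, EC makeup and genotype cannot be told apart. With cells of other lineages left out, Ednra stayed lower in sorted ECs than in the library labelled control, at 0.122 CPM (0.0489 to 0.251) against 1.64 CPM (1.04 to 2.47), but was under the 10 CPM limit in both. Against that library Gucy1a1 then differed by -0.02 in all ECs and stood 0.98 higher in Gja4-only cells, and Pde5a differed by -0.21 in Gja4-only cells.

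Between the whole lungs, none of the 10 genes differed by 2-fold in all ECs, Gja4-only or Gpihbp1-only cells, where 0.812%, 1.74% and 0.751% of all genes did. In Gja4-only cells this count changed with the processing, with 2 genes lower after thinning (Ednrb and Gucy1a1), 1 lower without Scrublet calls (Gucy1a1) and 1 higher with SoupX-adjusted counts. In all ECs the library labelled null exceeded that labelled control in Edn1 by 0.68 (0.62 to 0.76) and fell below it in Ednrb by -0.37 (-0.43 to -0.31). Gja4-only cells, the subset with the higher Edn1, were 638 of 3019 ECs in the library labelled null and 224 of 1923 in that labelled control. In Gja4-only cells Edn1 differed by 0.27 (0.15 to 0.38), Ednrb by -0.90 (-1.11 to -0.70) and Npr3 by -0.41. In Gpihbp1-only cells Edn1 differed by 0.36, Ednrb by -0.43 and Npr3 by -0.53. Edn1 was thus higher and Ednrb lower in the library labelled null in these 3 sets of ECs, except that Edn1 differed by -0.19 in Gja4-only and -0.01 in Gpihbp1-only cells with SoupX-adjusted counts, and the spread between animals is unknown. In the authors' SoupX-adjusted counts, in which free RNA was subtracted, the differences in all ECs were 0.30 for Edn1 and -0.14 for Ednrb. The adjustment removed 40.0% of UMIs from the library labelled control and 18.5% from the library labelled null.

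**Figure D5:**
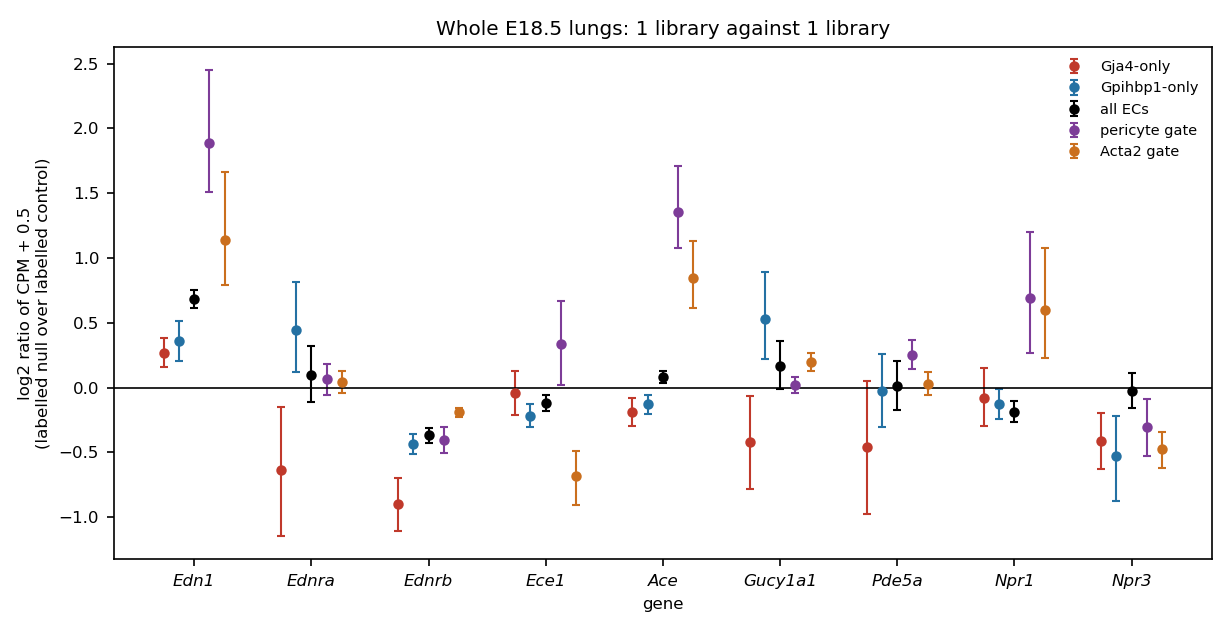
Log2 ratio of the library labelled null over the library labelled control for 9 genes in Gja4-only, Gpihbp1-only and all ECs and in the pericyte and Acta2 gates, with 95% intervals that cover counting error. Edn1 lay above 0 and Ednrb below 0 in all 3 sets of ECs in the unadjusted counts plotted, while Edn1 was at -0.19 and -0.01 in Gja4-only and Gpihbp1-only cells with SoupX-adjusted counts.

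In the pericyte gate Edn1 (1.89) and Ace (1.36) were at least 2-fold higher in the library labelled null, where 1.29% of all genes were, and in the Acta2 gate Edn1 (1.14) was, where 0.478% of all genes were. Endothelial markers in the pericyte gate summed to 513 CPM in the library labelled control and 931 CPM in the library labelled null, and 34 of 487 and 76 of 626 of its cells also passed the EC gate. These levels were low, and without cells of other lineages Edn1 was at 1.03 against 0.667 CPM in the pericyte gate and at 1.30 against 1.56 CPM in the Acta2 gate. Ace in the pericyte gate was then at 6.20 against 1.33 CPM, from 12 and 2 UMIs and under the 10 CPM limit in both, and with stricter gates it differed by 0.05. Ednra (148 and 154 CPM) and Gucy1a1 (505 and 513 CPM) in the pericyte gate had overlapping intervals in the 2 libraries. Among the pathway lists no gene was called in all ECs. Agtr2, the second angiotensin receptor, was higher in the library labelled null in the pericyte gate (24.2 against 3.37 CPM, 2.68) and in the Acta2 gate (19.8 against 2.58 CPM, 2.72). Fibroblast markers moved the same way, from 2988 CPM in the library labelled control to 4652 CPM in that labelled null in the pericyte gate and from 4254 to 5988 CPM in the Acta2 gate, and their part in the Agtr2 values was not tested. In the cells passing the Car4 gate, 50 in the library labelled control and 204 in that labelled null, Edn1 was 1.04 higher (3.18% of all genes) and Ednra (-1.29), Gucy1a1 (-1.96) and Pde5a (-1.24) were lower (5.34%). Pericyte markers summed to 257 CPM in the gated cells of the library labelled control and 104 CPM in those of the library labelled null, and epithelial markers to 6577 and 257 CPM. Of the same cells 1 of 50 and 47 of 204 also passed the Gja4 gate, and arterial markers, Cxcl12 included, summed to 482 and 704 CPM. The part of these cells and markers in the ratios was not tested. With cells of other lineages left out, Ednra turned to 1.93 and Edn1 was at 0.43, while Gucy1a1 (-1.21) and Pde5a (-1.45) stayed lower. The Edn1 call was also lost with a pseudocount of 5 CPM, thinning, Scrublet calls out or SoupX-adjusted counts.

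Genes with the most similar patterns were found by Pearson correlation of log2(CPM + 1) over 45 library-by-population sums, among 11257 genes. The sums share cells, libraries and depth, so the coefficients are descriptions. Edn1 was most like Sema3g (0.959), Heg1 (0.956) and Tek (0.944). Ece1 was most like Cyyr1 (0.976), Ushbp1 (0.973) and Spns2 (0.973), Ace most like Erap1, Cyb561 and Parp9 (each 0.961), and Npr1 most like Clec14a (0.966), Fgd5 (0.966) and Fam124b (0.965). Among the genes higher in the pericyte gate, Ednra was most like Ppp1r14a (0.979), S1pr3 (0.975) and Kcnk3 (0.973). Gucy1a1 was most like Rasl11a (0.954), Des (0.953) and Naalad2 (0.953), Agtr1a most like Pla2r1 (0.920), Itga7 (0.911) and Naalad2 (0.905), and Pde5a most like Ckb (0.937), Gucy1b1 (0.922) and Lbh (0.906). Ednrb and Npr3 had weaker nearest neighbours, Adcy9 (0.858), Tgfbr3 (0.854) and Kif13a (0.850) for Ednrb, and Tnks1bp1 (0.879), Marveld1 (0.848) and Lrp6 (0.831) for Npr3.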

How the data were processed

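Lung cells from 6 mouse libraries (10x 3′ version 3 chemistry) were analysed. The authors aligned reads to mm10 with Cell Ranger (3.1 in the submitters' notes, which also list Seurat 3.2.2; the matrix headers give 3.0.2 and 3.1.0) and deposited raw UMI counts per gene and cell. A second deposited matrix of each whole lung holds expected counts, the SoupX estimate after free RNA was subtracted, which was used as an alternative with sums rounded to whole numbers.

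Kept cells had 700 genes or more and a mitochondrial share of 0.5 to 10% of UMIs. For the whole lungs both were taken from the SoupX-adjusted counts, and for the sorted libraries from the raw UMIs. Doublets were not removed in the main values (Scrublet calls were an alternative, and its automatic limit marked 0 cells in the sorted E18.5 and P8 libraries, where the top 8% of scores were taken), and 36 repeated symbols were kept apart. UMIs were summed per library and gated population. The EC subsets were compared with edgeR 4.0.16 (R 4.3.3; TMM, filterByExpr, library as block, quasi-likelihood test, Benjamini-Hochberg over all genes). The subsets come from the same libraries, which differ in age, sort and label, and that spread enters the errors. The script was tested on simulated data. DESeq2 1.42.0 was an alternative. Other contrasts, with 1 library a side, are log2 ratios of CPM + 0.5 with an exact conditional binomial 95% interval of the count ratio, among genes of at least 10 CPM in either sum. Shares are of cells thinned to 2000 UMIs, with Clopper-Pearson intervals. Python 3.11.15 with numpy 2.4.6, scipy 1.17.1, pandas 2.3.3, scanpy 1.11.5 and matplotlib 3.10.9 was used.

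The 10 genes, the pathway and marker lists and the tests were chosen with earlier results of these data known. All 10 genes are named in each comparison they enter, from each list at most 3 called genes per direction with the largest change, the partners Nos3, Gucy1b1, Prkg1, Agt, Nppa, Nppc, Edn3 and Npr2, and for each gene the 3 most similar patterns. Other genes named were chosen after their values were seen. Pde5a shares 4.97% and Agtr1a 0.619% (with Agtr1b) of 60-base stretches near the 3′ end with another gene, and the other 8 genes share none.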

Additional observations from a re-analysis of the deposited data

Results flagged for a closer look

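The Gja4-only over Gpihbp1-only log2 ratio of Ednrb was 3.56 at P8 and below 0 in each of the other 4 libraries, and the same ratio of Npr1 was -0.23 at E15.5 and above 0 in the other 4. Between the whole lungs labelled null and control, Ece1 differed by 0.33 in the pericyte gate against -0.12 in ECs and -0.68 in the Acta2 gate, and Npr1 by 0.69 in the pericyte gate against -0.19 in ECs. Each was picked out because cells or libraries moved in opposite directions under the same contrast, and these differences were not tested.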

How the results depend on the processing

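No paired analysis was possible because each group has 1 sample and the labels carry no replicate numbers, as far as ages, labelled genotypes and preparations are concerned. The EC subset fits compare subsets within libraries, with the library as a block. Leaving out E18.5 or P8 leaves 1 library with Car4-only cells, whose spread is then assumed to be like that of the others. With 1 library per age, genotype and preparation, counting error is the only error known for those contrasts, and levels under about 10 CPM move with few UMIs and with cells of other lineages.

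Of the counts of the 10 genes recomputed, 476 stayed within 1.5 times and 56 moved. Of single-gene values, 1680 kept their direction and side, 564 moved, 16 lost and 8 gained a call, and 8 reversed. The causes were not tested. In Gja4-only against Gpihbp1-only cells, 2 genes were called higher and 1 lower both without cells of other lineages and with the gate set after thinning, where Pde5a became the lower call. In these runs 38.8% and 33.2% of all genes were called either way. Leaving out single libraries gave 3 to 4 higher and 0 to 1 lower calls, beside 24.3% to 32.0% of all genes called either way. The lower 1 was Ednrb without P8, and Agtr1a was not tested without either whole lung. In Car4-only against Gpihbp1-only cells, 13.7% of all genes were called either way in DESeq2. That share was 8.74% with SoupX-adjusted counts, 13.1% without cells of other lineages and 11.3% with the gate after thinning. Of the 10 genes, DESeq2 called 2 higher and 2 lower. None (0) was called higher with SoupX-adjusted counts, without cells of other lineages or with the gate after thinning, and leaving out single libraries gave 0 to 1 higher and 0 to 1 lower. In Gja4-only against Car4-only cells that range was 1 to 3 higher and 0 to 1 lower, with the lowest values without E18.5. Over all genes, 1738 calls in Car4-only against Gpihbp1-only cells became 482 without E18.5 and 523 without P8, and 2710 calls in Gja4-only against Car4-only cells became 1156 and 1535.

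Between E13.5 and E15.5, 1 gene was counted as lower in all ECs without other lineages, since Ednra and Gucy1a1 were as much lower but under 10 CPM at both ages, and 1 in Gja4-only cells with thinning, without Scrublet calls or without other lineages. With no filter on low values 1 gene was lower in Gpihbp1-only cells at E18.5, and without other lineages 2 were higher in Gja4-only cells at P8. Between the whole lungs, in Gja4-only cells 2 were lower with thinning, 1 lower without Scrublet calls and 1 higher with SoupX. In the Car4 gate 0 were higher with a pseudocount of 5 CPM, thinning, Scrublet, other lineages out or SoupX, 1 was lower with SoupX, and Ednra turned to 0.25 with thinning and 1.93 without other lineages. In the pericyte gate 0 were higher without other lineages or with stricter gates. In the Acta2 gate 0 were higher with a pseudocount of 5, per-cell means or thinning, 3 with stricter gates, and 1 was lower with thinning or without other lineages, where Edn1 turned to -0.20. For sorted over whole-lung ECs, 1 was lower with a pseudocount of 5 or SoupX, 0 with per-cell means, thinning, Scrublet or other lineages out (Ednra was then under 10 CPM), and 0 were higher with SoupX or against the library labelled null. In Gja4-only cells 0 were lower without other lineages and 1 with SoupX, where Gucy1a1 turned to 0.98 and 0.49 and Pde5a, with SoupX, to 1.54. In Gpihbp1-only cells 0 were lower with per-cell means, thinning, Scrublet, other lineages out or SoupX, and 2 with cycling cells out or against the library labelled null. The last comparison and the split of the Acta2 gate, in which Ednrb over ECs turned to -0.51 and -0.955 where Hhip and Pdgfra were at 0 (cells without other lineages' markers, set against all ECs), were chosen after seeing the data.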

Other observations

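The sorted libraries also held cells that passed the pericyte and Acta2 gates, and sums over these gates entered none of the comparisons except the search for similar patterns, although those of the cells that passed the EC gate were part of the EC sums. In the pericyte gate (1239, 398, 187 and 92 cells from E13.5 to P8), Ednra was at 141, 45.7, 64.0 and 16.3 CPM, Gucy1a1 at 215, 156, 255 and 220 CPM, Pde5a at 48.4, 57.3, 85.2 and 121 CPM, and Agtr1a at 7.72, 1.44, 1.93 and 6.22 CPM. Ednrb there was at 30.03, 15.2, 105 and 167 CPM in the same order. Of these gated cells 7, 80, 115 and 87 also passed the EC gate, and at E18.5 and P8 they carried endothelial markers at a summed 4828 and 11201 CPM. These cells enter the values of all the genes given here. In the Acta2 gate (2765, 1428 and 178 cells at E13.5, E15.5 and E18.5), Ednrb was at 209, 27.2 and 79.5 CPM, below the 1032 and 903 CPM of the whole lungs at E18.5, and Ednra was at 120, 54.1 and 90.1 CPM. Markers of airway smooth muscle and myofibroblasts summed to 458, 187 and 377 CPM in the same cells, also below their sums in the whole lungs. Their part in the Ednrb values was not tested. At P8 fewer than 50 cells passed that gate and no level is given.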
